A study of Mus musculus with 17 samples.

Results

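The miRNAs miR-192, miR-194 and miR-215 are made from 4 hairpin genes in the mouse, and the deposited table was searched for all 7 mature arms of these hairpins. It listed 5 of them (mmu-miR-192-5p, mmu-miR-192-3p, mmu-miR-194-5p, mmu-miR-194-2-3p and mmu-miR-215-5p, written below without the species prefix) among 1487 small RNAs. The arms mmu-miR-194-1-3p and mmu-miR-215-3p were not analysed here. The libraries were made from exosomal RNA of feces, from mice lacking interleukin 10 (IL-10 KO) on the C57BL/6J background, which were bought at 4 weeks of age and housed singly. Such mice develop gut inflammation spontaneously, and the time points ask which small RNAs differ between the start and the end of the study. Every library therefore carries the deletion, and wild-type libraries were not analysed here. There were 10 start-point libraries from 10 mice (7 male, 3 female) and 7 end-point libraries (5 from males, 2 from females) from 6 of the same mice, because end-point libraries 1 and 2 both carry the label of mouse 1. The age of the animals at each time point is not given in the sources used here.

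A miRNA hairpin is cut into a 5p and a 3p arm, and usually 1 arm is loaded into Argonaute as the guide while the other is discarded. The guide pairs with messenger RNAs mainly through its seed, bases 2 to 8. Mir192 and Mir194-2 sit side by side, and so do Mir194-1 and Mir215, so that each miR-192/215 relative is thought to share a primary transcript with a copy of miR-194. In textbook accounts all 3 miRNAs are abundant in the absorptive epithelium of the gut and also in liver and kidney, where hepatocyte nuclear factors drive their genes, and miR-192 and miR-215 are known p53 targets that slow the cell cycle. Exosomal RNA from feces has no cell of origin attached, and whether these arms came from enterocytes was not tested.

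The mature sequences are shown because the comparisons turn on which arms share a seed and which can be told apart. They are from RefSeq on GRCm38.p6, run 5′ to 3′, and carry the seed in capitals.
miR-192-5p: cUGACCUAugaauugacagcc
miR-215-5p: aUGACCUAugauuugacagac
miR-194-5p: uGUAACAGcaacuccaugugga
miR-192-3p: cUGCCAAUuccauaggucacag
miR-194-2-3p: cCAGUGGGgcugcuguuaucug
miR-194-1-3p: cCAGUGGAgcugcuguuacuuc
miR-215-3p: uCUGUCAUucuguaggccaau
The miR-192-5p and miR-215-5p sequences share their seed and 18 of 21 bases. Counted from the 5′ end, with the base of miR-192-5p first, they differ by C1A, A12U and C20A. No other mature miRNA in the RefSeq table has this seed. How the authors assigned reads matching both is not given in the sources used here, so the split of counts between this pair carries that uncertainty. Among listed miRNAs of the same length, the next nearest to either had 11 substitutions.

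The hairpins show how the arms are laid out, and the mature arms are in capitals.
Mir194-2: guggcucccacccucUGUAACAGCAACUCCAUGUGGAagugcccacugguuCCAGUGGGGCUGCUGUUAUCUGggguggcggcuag
Mir192: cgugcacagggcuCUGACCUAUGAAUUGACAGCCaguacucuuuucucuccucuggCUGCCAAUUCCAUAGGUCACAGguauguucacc
Mir194-1: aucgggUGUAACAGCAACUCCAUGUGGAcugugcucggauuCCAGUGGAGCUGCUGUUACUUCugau
Mir215: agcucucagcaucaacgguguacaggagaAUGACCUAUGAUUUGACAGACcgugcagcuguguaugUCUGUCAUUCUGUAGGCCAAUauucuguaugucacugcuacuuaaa
On GRCm38.p6, Mir194-2 spans chr19:6264643-6264728 and Mir192 spans chr19:6264844-6264932, both on the plus strand. They lie 115 bases apart, outside the annotated genes, with Atg2a before and Gm14963 after them. Mir194-1 spans chr1:185313319-185313385 and Mir215 spans chr1:185313581-185313692, also on the plus strand and 195 bases apart. This pair lies in an intron of Iars2, which is on the minus strand, and inside the plus-strand transcript 2010103J01Rik, with Mir194-1 in its intron and Mir215 in an exon. Both copies of Mir194 give the same 5p arm, so miR-194-5p counts cannot be assigned to a locus. The 3p arms differ between the loci by 4 substitutions (A8G, C19U, U20C and C22G, with the miR-194-1-3p base first), so miR-194-2-3p marks the miR-192 locus.

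Total counts ran from 87527 to 178075 per start-point library and from 32320 to 161862 per end-point library. Only end-point libraries 1, 3 and 7, the shallow libraries, were under 75000 counts. Each time point was cut into 2 sets, a number given to the method, by average-linkage clustering of Spearman rho. This used the 1265 tested small RNAs other than the 5 arms. The 3 shallow libraries made up 1 of the end-point sets. Start-point set 1 held libraries 1, 4, 6 and 7, all male. Start-point set 2 held libraries 2, 3, 5, 8, 9 and 10, of which 3 were male and 3 female. Median rho within sets was 0.77 and 0.75 at the start-point, against 0.49 between them. At the end-point it was 0.64 and 0.69, against 0.35. These sets were found in the data and are not groups of the study, and results are given with each set alone where that matters. Levels are given as CPM, counts per 1000000 counts of the library. Fold changes are from edgeR's quasi-likelihood test on the counts of all 17 libraries, scaled by TMM factors, with p-values adjusted by Benjamini-Hochberg over the 1270 small RNAs tested and a call at an adjusted p under 0.05. In fecal RNA, fewer vesicles from a cell type and less miRNA per vesicle cannot be told apart.

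Of the 5 arms, all passed the filter on low counts and 4 were called between time points, against 33.7% of all tested small RNAs. The 5p arms did not move together. At the end-point miR-192-5p and miR-194-5p fell, and so did miR-194-2-3p, making 3 of 5 lower against 16.3% of all. In contrast, miR-215-5p rose, 1 of 5 higher against 17.4% of all. For miR-192-3p the log2 fold change was -0.03 ± 0.49 (SE), with an edgeR adjusted p of 0.96. Among the 1270 small RNAs the median log2 fold change stood at -0.18 when scaled by TMM and at -0.67 when scaled by library totals. Relative to the TMM median, the log2 values were -2.58 for miR-192-5p, -2.13 for miR-194-5p, -1.25 for miR-194-2-3p and 3.70 for miR-215-5p, and scaling by totals left all 4 on the same side of 0. With mouse identity as a block in the fit, 0 of the 5 arms were called, against 8.19% of all tested small RNAs in either direction and 4.41% lower. Without the 3 libraries under 75000 counts, 3 of 5 were called, against 34.1% of all. Against start-point set 1 alone 3 of 5 were called (20.7% of all), and against set 2 alone 3 of the 4 arms that passed the filter (28.3% of all).

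**Figure D1:**
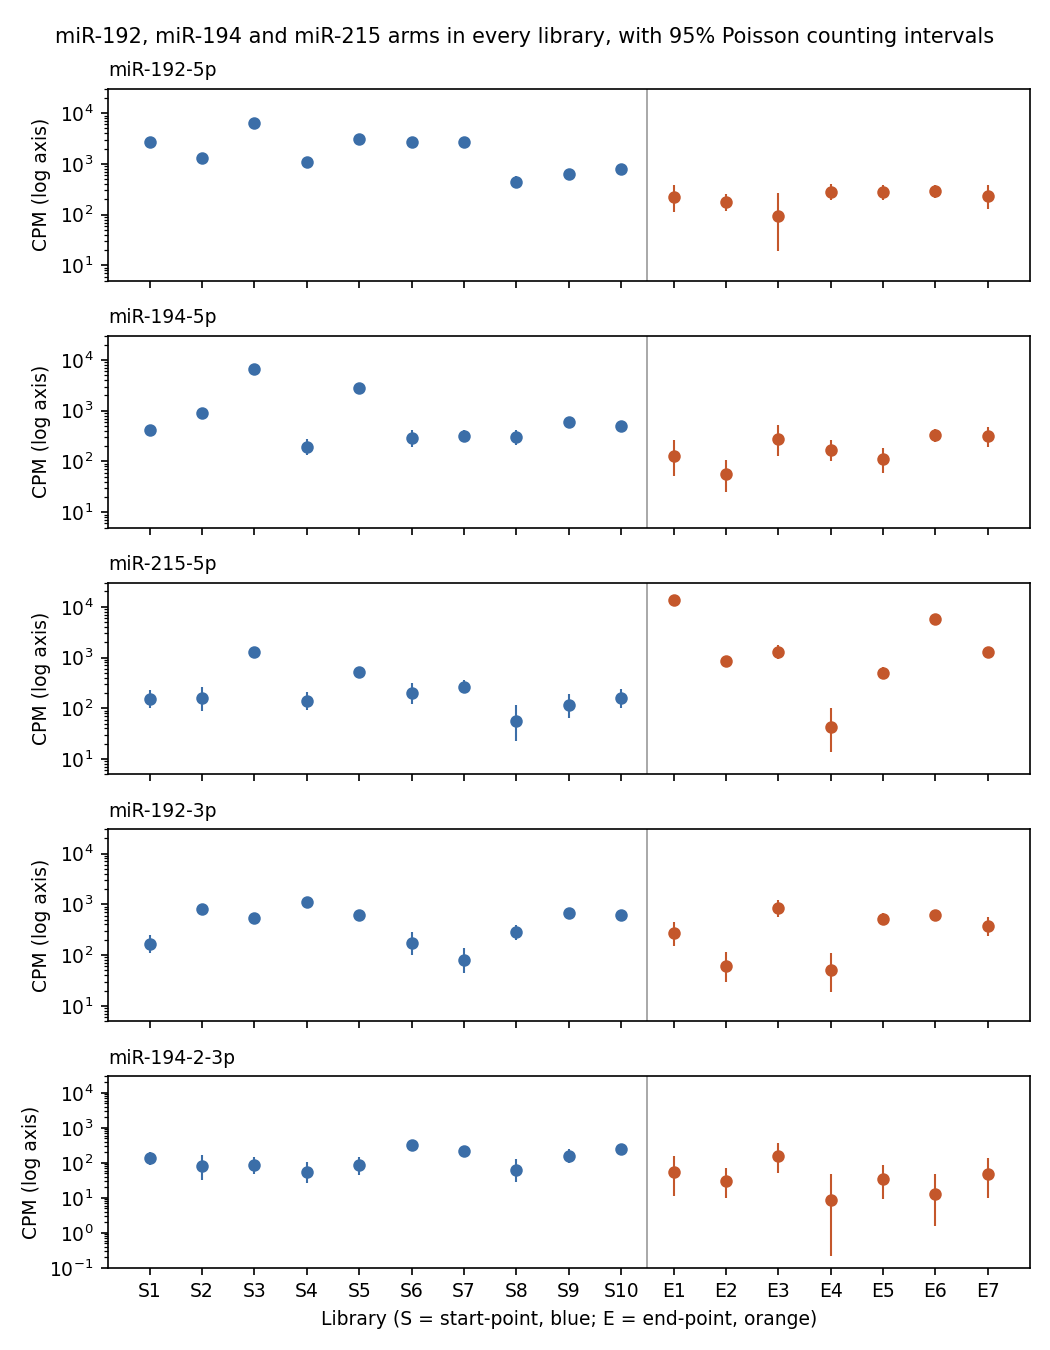
CPM of the 5 listed arms in every library on log axes, with 95% Poisson intervals that cover counting error only. The 7 end-point values of miR-192-5p lie below all 10 start-point values, while miR-215-5p lies above its start-point maximum in 4 of 7 end-point libraries.

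The guide arm of Mir192, miR-192-5p, had a lowest value of 448 CPM, a median of 1977 and a highest of 6313 at the start-point, against 92.8, 235 and 291 CPM at the end-point. In CPM the time points did not overlap, as was the case for 5.59% of tested small RNAs. With TMM factors they did, and 4 of 7 end-point libraries lay above the lowest start-point library. At the start-point it ranked 61 by mean CPM among the 1487 small RNAs, and at the end-point 625. Mean levels were 2175 ± 1764 CPM (SD, n = 10) at the start and 225 ± 71.0 CPM (SD, n = 7) at the end. The log2 fold change was -2.77 ± 0.62 (SE), with an edgeR adjusted p of 0.0018. End-point library 3 held only 3 counts of it (95% Poisson interval 19.1 to 271 CPM), against 12 to 44 counts elsewhere. Against set 1 alone the value was -2.91 and against set 2 alone -2.40, with edgeR adjusted p of 0.00664 and 0.0161. With mouse as a block the value was -2.66, with an edgeR adjusted p of 0.0567. Over all alternatives its adjusted p ran from 7.33e-05 to 0.0779. Within mice it was lower at the end-point in 6 of 6 in CPM and in 5 of 6 with TMM factors. On the TMM scale the log2 changes were -6.15 (mouse 3) to -0.77 (mouse 11), and 0.35 in mouse 9, where CPM went from 448 to 291.

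The other arm of the same hairpin, miR-192-3p, behaved differently. Its start-point values had a lowest of 81.6 CPM, a median of 573 and a highest of 1095, and its end-point values 51.3, 376 and 835 CPM. The ranges overlapped almost fully, and 9 of 10 start-point values lay below the highest end-point value. Within mice it was lower in 3 and higher in 3 with TMM factors, and lower in 2 and higher in 4 in CPM.

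The guide arm shared by both loci, miR-194-5p, is known for restraining migration and for its high level in differentiated gut epithelium. It had a lowest value of 197 CPM, a median of 458 and a highest of 6658 at the start-point, against 55.6, 171 and 331 CPM at the end-point. Start-point libraries 3 and 5 stood high, at 6658 and 2810 CPM, and the other 8 libraries ranged from 197 to 914 CPM. The ranges overlapped, with 4 of 10 start-point libraries below the highest end-point value in CPM and 6 of 10 with TMM factors. Set 1 held 197 to 419 CPM and set 2 held 304 to 6658 CPM. The log2 fold change was -2.31 ± 0.69 (SE), with an edgeR adjusted p of 0.0124. Against set 2 alone the value was -2.76 (edgeR adjusted p 0.00925), and against set 1 alone it was -0.48 ± 0.49 (SE) and not called (0.499). The difference between these 2 values was not tested. The value was -1.46 without start-point library 3, with an edgeR adjusted p of 0.042, and -1.40 in DESeq2, with an adjusted p of 0.0293. The call was also lost when the 3 shallow libraries were left out (-2.0, edgeR adjusted p 0.0919) and with mouse as a block (-1.80, 0.136), and over all alternatives the adjusted p ran from 0.00421 to 0.499. Within mice it was lower in 5 of 6.

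The arm that marks the Mir192 locus, miR-194-2-3p, was the least abundant, with 7 to 38 counts per library at the start and 1 to 5 at the end. Its CPM had a lowest of 56.2, a median of 112 and a highest of 322 at the start-point, against 8.56, 33.8 and 155 at the end-point. Of the 7 end-point values, 6 lay below all start-point values in CPM, with end-point library 3, the shallowest, as the exception, and 3 did so with TMM factors. The log2 fold change was -1.43 ± 0.51 (SE), with an edgeR adjusted p of 0.0303. This call was close to the threshold and was lost without any 1 of start-point libraries 6 and 7 or end-point libraries 4, 5, 6 and 7, with edgeR adjusted p of 0.0505 to 0.0695. Against set 1 alone the value was -2.0 (edgeR adjusted p 0.0255), and in the fit with set 2 alone it did not pass the filter. The call was also lost in male libraries only (-1.34, 0.12) and with mouse as a block (-1.38, 0.149), and over all alternatives the adjusted p ran from 0.0134 to 0.156. Its seed, CAGUGGG, is shared by 2 other listed miRNAs. They are shown with the shared seed in capitals.
miR-6926-5p: uCAGUGGGgugagggaugguga
miR-7055-5p: uCAGUGGGuuaucugaguugg
Of this pair miR-6926-5p was higher at the end-point (log2 fold change 1.58 ± 0.43, SE; edgeR adjusted p 0.00744), while miR-7055-5p was at -0.30 ± 0.61 (edgeR adjusted p 0.735).

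The guide arm of Mir215, miR-215-5p, moved the other way. Its lowest value was 56.0 CPM, its median 159 and its highest 1263 at the start-point, against 42.8, 1300 and 13298 CPM at the end-point. By mean CPM it ranked 594 of the 1487 small RNAs at the start-point and 45 at the end-point. End-point libraries 1 and 6 stood highest, at 13298 and 5700 CPM, and end-point library 4 was the lowest of all 17, at 42.8 CPM from 5 counts. Thus 4 of 7 end-point values lay above and 1 below the start-point range in CPM. With TMM factors 4 lay above and 0 below. The log2 fold change was 3.51 ± 0.74 (SE; edgeR adjusted p 0.00109). Leaving out the 3 shallow libraries gave 3.39 (edgeR adjusted p 0.00269), set 1 alone gave 3.94 (0.0227) and set 2 alone 3.39 (0.0174). With mouse as a block it was 2.52 ± 1.41 (SE) and was not called (edgeR adjusted p 0.256). Over all alternatives the adjusted p ran from 3.23e-05 to 0.263. Within mice it was higher in 5 of 6 in CPM and in 4 of 6 with TMM factors. On the TMM scale the log2 change reached 7.15 in mouse 9, and it was -0.34 in mouse 3, where CPM went from 1263 to 1300, and -2.46 in mouse 5.

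**Figure D2:**
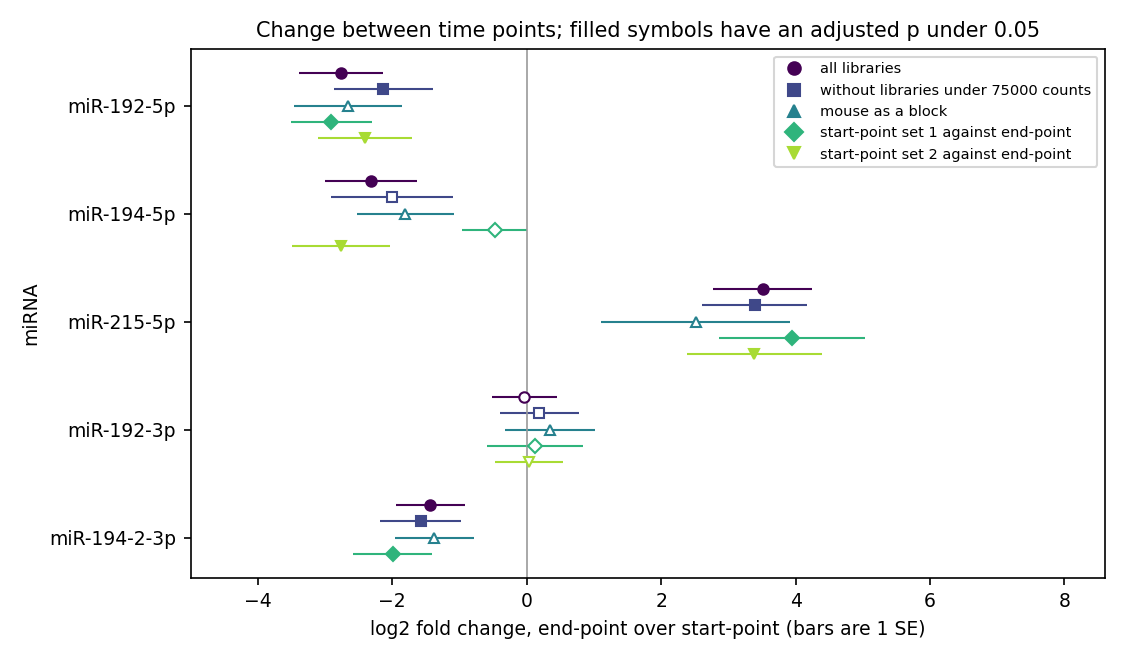
Log2 fold change of each arm, end-point over start-point, with 1 SE, under 5 analyses of the same counts, where filled symbols have an edgeR adjusted p under 0.05. For miR-194-5p the symbol against start-point set 1 lies at -0.48 and the one against set 2 at -2.76, while for miR-215-5p all 5 symbols lie above 0 and the one with mouse as a block is open.

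The sequence relatives miR-192-5p and miR-215-5p were then compared within each library, where scaling cancels. At the start-point miR-215-5p made up a lowest of 5.45% (95% Wilson interval 3.69 to 7.99%), a median of 11.2% and a highest of 16.9% (11.4 to 24.3%) of the counts of this pair. At the end-point it made up 98.4% in library 1, 82.7% in library 2, 93.3% in library 3, 13.2% in library 4, 64.5% in library 5, 95.1% in library 6 and 84.7% in library 7. It was therefore the majority of the pair in 6 of 7 end-point libraries and in 0 of 10 start-point libraries. End-point library 4, from mouse 5, had a 95% Wilson interval of 5.75 to 27.3%, which spans the 14.3% of the start-point library of that mouse. Summed, the pair held 504 to 7576 CPM (median 2150) in start-point libraries and 325 to 13517 CPM (median 1392) in end-point libraries, so the summed level overlapped widely.

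**Figure D3:**
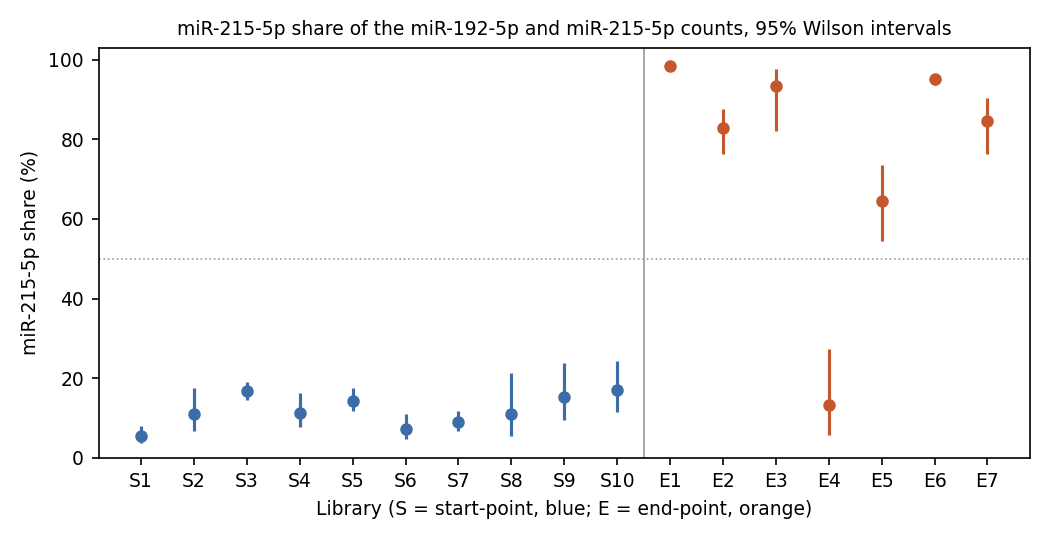
Share of miR-215-5p in the counts of miR-192-5p and miR-215-5p in each library, in percent, with 95% Wilson intervals for counting error and a dotted line at 50%. Start-point shares lie between 5.45% and 16.9%, and 6 of 7 end-point shares lie between 64.5% and 98.4%.

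As a log2 ratio of counts with 0.5 added, miR-215-5p to miR-192-5p went from -2.95 ± 0.60 (SD, n = 10) to 2.38 ± 2.72 (SD, n = 7). By a two-sided exact permutation test the difference of 5.33 had p = 0.000257 (adjusted p 0.000771 over the 5 ratios tested). The permutation tests of the ratios treat all 17 libraries as independent, although 13 come from 6 mice with both time points. With the end-point libraries of mouse 1 summed, the difference was 5.11 (adjusted exact permutation p 0.00187). Against set 1 alone the difference was 5.88 (adjusted exact permutation p 0.0227) and against set 2 alone 4.96 (0.00874). When the 3 shallow libraries were left out it was 4.14 (exact permutation p 0.005, adjusted 0.015), and leaving out 1 library at a time gave 4.75 to 6.16. The ratio was higher within 5 of 6 mice, and in mouse 5 it changed by -0.03. With the mouse as a block, by an exact sign-flip permutation test, the mean change was 5.04 with p = 0.0625 and an adjusted p of 0.104, where the smallest possible p is 0.0312.

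Across libraries of the same time point, the 3 guide arms were compared within start-point set 2, a choice made after the sets had been seen, since a correlation over both sets mixes them and the other sets hold 3 or 4 libraries each. Over all 10 start-point libraries the planned r of miR-192-5p with miR-194-5p was 0.64 and was not called (permutation p 0.0426, adjusted 0.0851). For miR-215-5p with miR-194-5p it was 0.84 (adjusted permutation p 0.00672), and for miR-192-5p with miR-215-5p it was 0.91 (0.00042). Over the 7 end-point libraries the planned r was 0.29, -0.25 and -0.21 in the same order. None of these end-point values was called (adjusted exact permutation p 0.638 for each). In the 6 libraries of set 2 each r was higher, but the p-values there do not allow for the choice of this set from the same data. How closely other small RNAs follow each other in set 2 was not computed. For the cluster partners miR-192-5p and miR-194-5p Pearson r was 0.99 and Spearman rho 0.94 (exact permutation p 0.00278 and 0.0167). For miR-215-5p and miR-194-5p r was 0.99 and rho 0.94 (exact permutation p 0.00278 and 0.0167). For miR-192-5p and miR-215-5p r was 0.99 and rho 1 (exact permutation p 0.00139 and 0.00278). Adjusted over these 3 relations, each r had p = 0.00278 by the exact permutation test. Without the 2 libraries farthest from the median, r over the remaining 4 was 0.95, 0.87 and 0.89 in that order. Libraries 2, 3 and 5, from males, held the 3 highest miR-192-5p levels of the set and the females the 3 lowest, and all points share the scaling of their library.

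**Figure D4:**
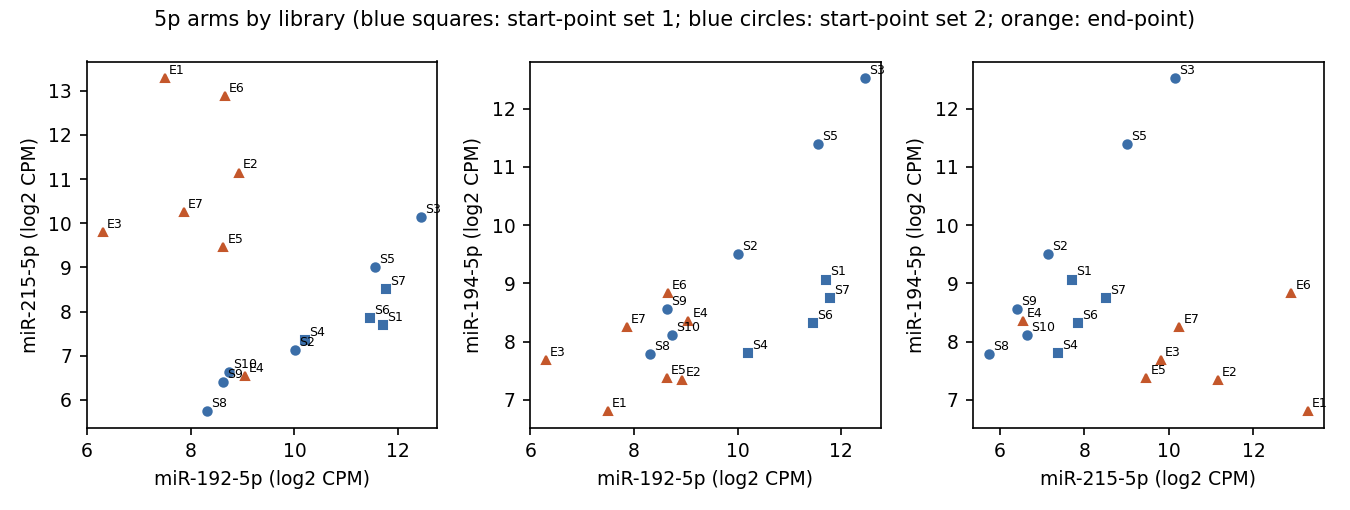
Log2 CPM with TMM factors of the 3 guide arms plotted against each other, with 1 point per library. In the middle panel the 6 libraries of start-point set 2 rise along a line (r of 0.99), set 1 lies below that line.

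The clustered partners were compared in the same way. For the Mir215 locus, the log2 ratio of miR-215-5p to miR-194-5p went from -1.63 ± 0.91 (SD, n = 10) to 2.72 ± 2.61 (SD, n = 7), a difference of 4.35. Its exact permutation p was 0.000309 (adjusted 0.000771). Against set 2 alone the difference was 4.99 (adjusted exact permutation p 0.00874), and against set 1 alone it was 3.38 and missed the threshold (exact permutation p 0.0424, adjusted 0.053). When the 3 shallow libraries were left out it was 3.69 (exact permutation p 0.00599, adjusted 0.015). The ratio was higher in all 6 mice, by 0.52 (mouse 5) to 6.66 (mouse 1). With the mouse as a block the mean change was 4.16, the exact sign-flip permutation p was 0.0312, the smallest the test can give, and the adjusted p was 0.104.

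For the Mir192 locus, the log2 ratio of miR-192-5p to miR-194-5p averaged 1.32 ± 1.34 (SD, n = 10) at the start and 0.34 ± 1.07 (SD, n = 7) at the end. A difference of -0.98 was within the spread between libraries (exact permutation p 0.128, adjusted 0.16). The start-point sets lay apart in this ratio. They were formed from other small RNAs of the same libraries, so the separation is no independent support for them. How many other ratios lie apart between the sets was not counted. Libraries 1, 4, 6 and 7 had 2.67, 2.47, 3.17 and 3.06, while set 2 ranged from -0.08 to 0.64. Against set 1 alone the difference was -2.50 (exact permutation p 0.00303, adjusted 0.0152), and against set 2 alone the difference was 0.03 (exact permutation p 0.953, adjusted 0.953). The ratio of miR-215-5p to miR-194-5p was also higher in set 1, at -1.42 to -0.26, than in set 2, at -2.47 to -1.63. These differences between sets are descriptions and were not tested.

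The arms of the Mir192 hairpin were compared as well. The 3p arm was the more abundant in 1 of 10 start-point libraries and in 5 of 7 end-point libraries. Start-point library 4 was close to even, at 195 counts of the 3p arm against 196. Those 5 end-point libraries included the shallow libraries 1, 3 and 7, with 12, 3 and 15 counts of the 5p arm. The log2 ratio of miR-192-3p to miR-192-5p averaged -2.04 ± 1.94 (SD, n = 10) at the start and 0.29 ± 1.76 (SD, n = 7) at the end. The change of 2.33 passed the threshold (exact permutation p 0.0242, adjusted 0.0404). It was 3.52 against set 1 alone (exact permutation p 0.0182, adjusted 0.0303) and 1.54 against set 2 alone (0.111, adjusted 0.186). The call was lost without any 1 of start-point libraries 1, 3, 5, 6 and 7 or end-point libraries 1, 3, 5, 6 and 7, with adjusted p of 0.0575 to 0.0999. When the 3 shallow libraries were left out the difference was 1.57 (exact permutation p 0.185, adjusted 0.278), and with the mouse as a block it was 3.02 (exact permutation p 0.0625, adjusted 0.104). For the 3p arms at this locus, the log2 ratio of miR-192-3p to miR-194-2-3p was 1.63 ± 1.81 (SD, n = 10) and 2.76 ± 1.38 (SD, n = 7), a difference within the spread (exact permutation p 0.184, adjusted 0.184).

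**Figure D5:**
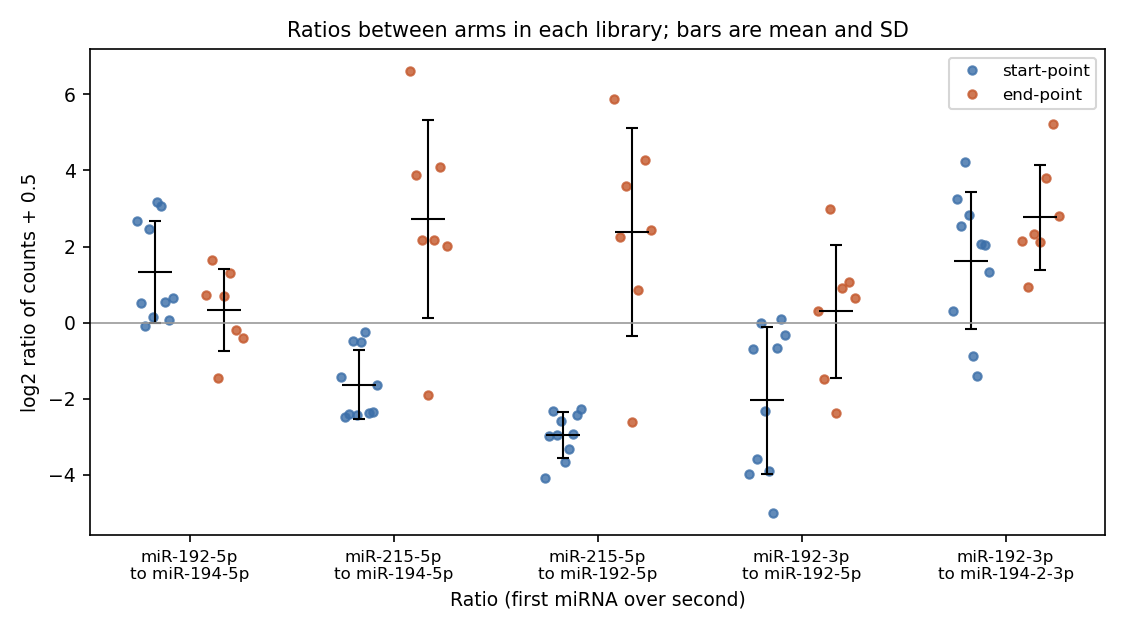
Log2 ratios of counts (0.5 added) between arms in each library, with the mean and SD of each time point. For miR-215-5p to miR-194-5p and miR-215-5p to miR-192-5p, 6 of 7 end-point libraries lie above the highest start-point library, and end-point library 4 lies among the start-point values.

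In the comparison of sexes, edgeR called 0 of 1270 small RNAs (0%) with time point as a covariate, and 130 had an unadjusted edgeR p under 0.05. The DESeq2 Wald test called 41. For miR-192-5p the log2 fold change, female over male, was -1.56 ± 0.65 (SE), with an edgeR adjusted p of 0.432 and a range of 0.0645 to 0.479 over the alternatives. At the start-point its 7 male libraries held 1101 to 6313 CPM and its 3 female libraries 448 to 779, and set 1 held males only. Within set 2 the 3 males held 1302, 6313 and 3138 CPM. How many other small RNAs separate the sexes in this way was not counted, so no sex difference is read from these ranges. At the end-point males held 92.8 to 282 CPM and females 235 to 291. The other 4 arms had log2 fold changes of -0.89 to -0.02 and edgeR adjusted p of 0.633 to 0.992.

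Of 10 other miRNAs associated with intestinal epithelium, 8 were listed and tested. At the end-point 2 passed the test as higher, miR-200b-3p (3.28, edgeR adjusted p 0.026) and miR-141-3p (2.86, 0.00186), which restrain the mesenchymal programme. The 2 that passed as lower were miR-375-3p (-2.30, 0.0212), a miRNA of hormone-secreting cells, and miR-31-5p (-2.30, 0.014), all as log2 fold changes. These counts of 2 of 8 in each direction stand beside 17.4% higher and 16.3% lower over all tested small RNAs. With mouse as a block both higher calls were lost (edgeR adjusted p 0.835 for miR-200b-3p and 0.177 for miR-141-3p), while the lower calls held (0.0465 for miR-375-3p and 0.0434 for miR-31-5p). The median of the 8 was -0.60, beside -0.18 over all tested small RNAs. The summed level of the 8 ran from 3130 to 17111 CPM at the start-point and from 1039 to 37322 at the end-point. Although called higher, miR-200b-3p had a lower median at the end-point (595 CPM) than at the start-point (1063 CPM). Its end-point libraries ran from 30.9 to 35672 CPM. For miR-141-3p the median went from 131 CPM at the start-point to 248 CPM at the end-point. Neither miR-200c-3p nor miR-7a-5p was analysed here.

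Markers of liver, a tissue that also expresses these arms, moved with the time point. Both arms of miR-122, the dominant liver miRNA, were called higher, with log2 fold changes of 5.29 (miR-122-5p, edgeR adjusted p 5.82e-05) and 4.35 (miR-122-3p, 0.000875). Their summed level was 40.0 to 320 CPM at the start-point and 18.3 to 8593 at the end-point. The rise was uneven, with 2728 to 3388 CPM of miR-122-5p in end-point libraries 4, 5 and 6. The other end-point libraries held 18.3 to 402 CPM of it, against at most 118 CPM at the start-point. Counts of miR-122-3p were 0 in end-point libraries 1 and 3. Of the end-point libraries highest in miR-215-5p, library 1 held 1 count of miR-122-5p and 0 of miR-122-3p, while library 6 held 2728 and 3489 CPM of them. Library 4, lowest in miR-215-5p, held 3388 CPM of miR-122-5p and 385 CPM of miR-122-3p. These 3 libraries were picked at the extremes of miR-215-5p, so no order is read from them. The other end-point libraries held 371 (library 2), 402 (library 3), 3216 (library 5) and 172 CPM (library 7) of miR-122-5p. Their miR-215-5p levels were 859, 1300, 506 and 1300 CPM in the same order. A relation over all end-point libraries was not tested. With mouse as a block miR-122-5p was still called (edgeR adjusted p 0.0295) and miR-122-3p was not (0.191). The lists of other cell types were small, and their counts of calls stand beside 33.7% over all tested small RNAs. Of 6 leukocyte miRNAs, 4 were listed, 3 were tested and 1 was called, miR-223-3p (2.38, 0.00187), with summed levels of 387 to 3361 CPM and 237 to 3114 CPM. Of 3 smooth muscle miRNAs, miR-143-3p was called higher (2.87, 0.000584) and miR-133a-3p lower (-1.94, 0.0445), with summed levels of 400 to 2169 CPM and 334 to 12136 CPM. Of 3 red cell miRNAs, 2 were listed, 1 was tested and 0 were called by edgeR, with summed levels of 149 to 1006 CPM and 12.4 to 530 CPM. With mouse as a block, miR-223-3p (edgeR adjusted p 0.211) and miR-133a-3p (0.51) lost their calls and miR-143-3p (0.048) kept its own. The kidney tubule miRNAs miR-204-5p and miR-30a-3p were not analysed here. The part of these markers in the results on miR-192, miR-194 and miR-215 was not tested.

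The small RNAs whose levels were most like each guide arm over the 17 libraries were found by Spearman rho of log2 CPM among 1269 others, as a description. For miR-192-5p they were let-7c-5p (0.90), miR-434-3p (0.90) and miR-26a-5p (0.85), and its cluster partner miR-194-5p, at 0.69, came 40th. For miR-194-5p they were miR-6404 (0.88), miR-6377 (0.82) and miR-434-3p (0.77), and miR-192-5p came 8th. For miR-215-5p they were miR-5123 (0.79), miR-7002-5p (0.74) and miR-30b-3p (0.74), and miR-194-5p, at -0.18, came 717th. These points share the library scaling and the difference between time points.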

How the data were processed

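Small RNAs from fecal exosomes were sequenced in 17 libraries made with the QIAseq miRNA kit, per the labels' protocols. The authors deposited whole-number counts per small RNA and library, and the submitters' processing notes name the build GRCm38 and bcl2fastq. The aligner, the counter and the handling of unique molecular identifiers and of reads matching several miRNAs are not given in the sources used here. The smallest maximum count of any listed small RNA was 10.

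Groups follow the time point label. Counts were tested with edgeR 4.0.16 in R 4.3.3 (glmQLFit with bias-adjusted deviances, glmQLFTest, TMM, filterByExpr by time point). SEs are the log2 fold change over the square root of F. On simulated counts for 1487 small RNAs with 200 changed by a log2 value of 3, the time point test recovered 98.8% of those tested, with 6.63% of calls false, and the sex test 97.0% with 4.65%. The simulation gave every small RNA the same spread and independent libraries, without sets or repeated mice. Changes under 3 were not simulated, so these rates need not hold for the real libraries. For log2 CPM the prior count was 2. Ratios were compared by exact permutation over all 19448 choices of 7 of 17 libraries, which leaves out that libraries share mice. A ratio was tested where both arms had at least 3 counts in at least 9 libraries, which left 5 of 8. Intervals cover counting error only.

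Pairing comes from mouse identity in the labels, not from title numbers. Deviations from group means correlated at -0.07 to 0.26 between same-mouse libraries (mean 0.09, 7 pairs). No libraries agreed within sampling noise (chi-square per degree of freedom at least 10.1). Sequences were matched by name in RefSeq (GRCm38.p6), where 1254 of 1439 listed miRNAs had one, and gene positions come from GENCODE vM21. The miRNAs named were all listed arms, seed relatives, called members of the epithelial list and the 3 nearest in level to each guide arm. The arms and lists were chosen with earlier results of these data known. Alternatives covered scaling, filters, DESeq2 1.42.0, mouse as a block, subsets of libraries and pseudocounts of 0.1 and 1. The edgeR legacy quasi-likelihood and the analyses by set of start-point libraries were added after seeing the data. Correlations had been planned over all libraries of a time point, and pooled values are given only with the limits because the libraries fell into sets. For those, tests over 10 libraries drew 100000 resamples.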

Additional observations from a re-analysis of the deposited data

Results flagged for a closer look

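Within a time point, single libraries stood far from the rest for 5 of the 20 sets of values examined. The rule flags about 1 in 20 sets of independent, normally distributed values. CPM values are skewed and the arms are related, so the count of 5 is no measure of an excess. Start-point library 3 was the highest of 10 for each guide arm, with 6313 CPM of miR-192-5p (next 3138), 6658 CPM of miR-194-5p (next 2810) and 1263 CPM of miR-215-5p (next 524). Its 3p arms did not stand apart, at 527 CPM of miR-192-3p and 87.8 CPM of miR-194-2-3p. At the end-point, library 1 was far above the others for miR-215-5p, at 13298 CPM (next 5700). End-point library 3 stood apart for miR-194-2-3p, at 155 CPM (next 54.8), which came from 5 counts in the shallowest library. No ratio between arms had a library standing apart in this way. No arm changed in opposite directions in all males and all females among the 6 mice with both time points.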

How the results depend on the processing

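Of 393 alternative values for 23 results, 326 stayed on the same side of the threshold with the same sign. With mouse identity as a replicate block, edgeR called 104 small RNAs in place of 428, and the log2 fold changes were -2.66 (miR-192-5p), -1.80 (miR-194-5p), -1.38 (miR-194-2-3p), 2.52 (miR-215-5p) and 0.35 (miR-192-3p, reversed). Without end-point library 2 the block gave 85 calls and -2.79, -1.87, -1.49, 2.55 and 0.40. The blocked ratio changes were 4.16 (miR-215-5p to miR-194-5p), 5.04 (miR-215-5p to miR-192-5p) and 3.02 (miR-192-3p to miR-192-5p), and no arm or ratio stayed past the threshold with the block. For the ratios, the smallest p of the exact sign-flip test over 6 mice is 0.0312 before adjustment over 5 ratios. A ratio at that p could not be called unless others reached it too, so the lost ratio calls do not measure weakness. Start-point set 1 alone gave 238 calls, with miR-194-5p at -0.48, miR-192-3p at 0.12, miR-192-5p to miR-194-5p at -2.50 (now past the threshold) and miR-215-5p to miR-194-5p at 3.38. Set 2 alone gave miR-192-3p at 0.033, miR-192-5p to miR-194-5p at 0.028 and the arm ratio of miR-192 at 1.54. Without the libraries under 75000 counts, miR-194-5p (-2.0) and the arm ratio of miR-192 (1.57) lost their calls and miR-192-3p was at 0.19. Male libraries only gave 207 calls, with miR-194-2-3p at -1.34 and the arm ratio at 2.85, neither called. Library totals only called 476, of which 30.9% were higher, against 51.6% with TMM factors. With the libraries of mouse 1 summed, miR-192-3p was at 0.10. For sex, the DESeq2 Wald test called 41 small RNAs, and miR-192-3p was at 0.27 with library totals only and 0.013 without the libraries under 75000 counts.

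Correlations pooled over a time point mix the sets. For miR-192-5p with miR-194-5p the start-point r went from 0.64 over 10 libraries to 0.99 in set 2, and the end-point r of 0.29 turned to -0.045 with library totals only and -0.18 without the 2 farthest libraries. For miR-215-5p with miR-194-5p the end-point r of -0.25 turned to 0.17 and 0.71 in the same way, and the start-point r of 0.84 lost its call at 0.63 without the 2 farthest.

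Leaving out 1 library at a time gave ranges of -0.30 to 0.26 for miR-192-3p, -1.70 to -1.18 for miR-194-2-3p and 1.89 to 2.78 for the arm ratio of miR-192. The pooled r of miR-215-5p with miR-194-5p ranged from 0.68 to 0.89 at the start-point and from -0.81 to 0.14 at the end-point, and the end-point r of miR-192-5p with miR-215-5p from -0.55 to 0.18. The calls of miR-192-5p (-2.91 to -2.50), miR-194-5p (-2.56 to -1.46) and miR-215-5p (2.88 to 4.07) held without any 1 library. The cause of these changes was not tested. End-point counts of 1 to 5 for miR-194-2-3p limit its precision. The 3 ratios with miR-194-1-3p or miR-215-3p were not run.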
